A study of Mus musculus with 6 samples.

Results

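The genes described here encode chromatin modifiers and remodellers, the enzymes and complexes that add, remove or read marks on histones and DNA or that slide nucleosomes. They were taken from the deposited table by name: every gene whose symbol begins with Hdac, Arid, Kmt2, Kdm, Dnmt, Nsd, Whsc1, Tet or Smarc, and 13 further genes such as Ezh2, Setd2 and Ep300. The rule took 35 of the 750 genes measured, and all 35 passed the filter on low values (10 counts on average), as did 627 of all genes. Whsc1 and Whsc1l1 are the older names of Nsd2 and Nsd3, and the other 33 symbols matched a current RefSeq symbol.

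The samples were 6 mammary tumours of female mice, each grown from 300000 implanted 4T1 cells, a mouse mammary carcinoma line. Starting 2 weeks after implantation, 3 of the tumours were in the group labelled Saline and 3 in the group labelled TTFM, extracts from a formulary of Thai traditional medicine. Its composition, dose and length of use are not stated in the labels. All tumours came from the model labelled CLDX, a name the labels do not spell out, and no strain or age is given in the sources used here. A graft of 1 cell line models 1 tumour genotype, and the labels do not say that each sample came from its own mouse, so p-values speak of sample-to-sample spread alone, part of which may be technical.

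Chromatin enzymes work in opposed pairs. Acetyltransferases add acetyl groups to histone tails, which loosens chromatin, and deacetylases remove them. Methyltransferases of the Kmt2 and Nsd families and Setd2 mark active genes, while Ezh2 and Suv39h2 write marks of silenced chromatin, and Kdm enzymes erase methyl marks. Dnmt enzymes methylate DNA and Tet enzymes start its demethylation. SWI/SNF complexes use ATP to move nucleosomes, and genes of this system are often mutated in carcinomas.

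Total counts ran from 333515 to 449460 per tumour, and 28 of the 35 genes averaged 100 counts or more. Arid2 and Bap1 had mean counts under 20, close to the 4 to 12 counts of Uty, the Y-linked relative of Kdm6a, which marks the bottom of the range in these female tumours. Both epithelial markers on the panel were detected, Cdh1 and Itgb4, together at 1481 to 2105 normalized counts in the Saline group and 1543 to 2657 in the TTFM group, while the other 6 on the list, keratins and Epcam among them, are not in the table. Saline replicate 2 stood with TTFM replicates 1 and 2 rather than with its own group on the first principal component of all genes (56.8% of the variance), and counts over the list are also given without it. A bulk tumour mixes carcinoma, stromal and immune cells, so that fewer cells of a type and less RNA per cell cannot be told apart.

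The comparison of TTFM with Saline asks whether treatment went with a shift in the transcripts of the chromatin machinery. Of the 35 genes, 0 passed edgeR's quasi-likelihood test after Benjamini-Hochberg adjustment over all 627 genes (background 0%), and 0 passed with DESeq2 or limma. The list as a whole was centred near 0: 17 genes had positive and 18 negative log2 fold changes of TTFM over Saline, with a median of -0.0014, the same as that of all genes tested, and the split ran from 14 to 21 positive genes under other scalings and filters. Before adjustment, 2 genes had an edgeR p under 0.05, which is 5.71% of the list against 6.06% of all genes tested. They were Whsc1 on the higher side, where 1.59% of all genes lay, and Tet2 on the lower side, with 4.47% of all genes. The values of Saline and TTFM tumours did not overlap in 1 gene, Men1 (2.86%, against 8.29% of all genes). Men1 was lower in TTFM, as were 4.31% of all genes without overlap, and 0 chromatin genes were higher without overlap, against 3.99% of all genes.

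Most of these genes could be bounded. In 26 of the 35 (74.3%) the 95% interval of the log2 fold change, from edgeR's fit, lay wholly inside a 2-fold change in either direction. That held for 47.8% of all genes tested, and among genes that averaged 100 counts or more it held for 78.6% of these genes against 62.2% of all. The 9 exceptions were Whsc1, Tet2, Ncor1, Pbrm1, Dnmt1, Suv39h2, Hdac5, Hdac11 and Arid2. The genes also differed little between tumours, with a median SD of the log2 values over the 6 tumours of 0.28 against 0.39 for all genes tested, and of 0.27 against 0.33 among genes that averaged 100 counts or more.

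**Figure D1:**
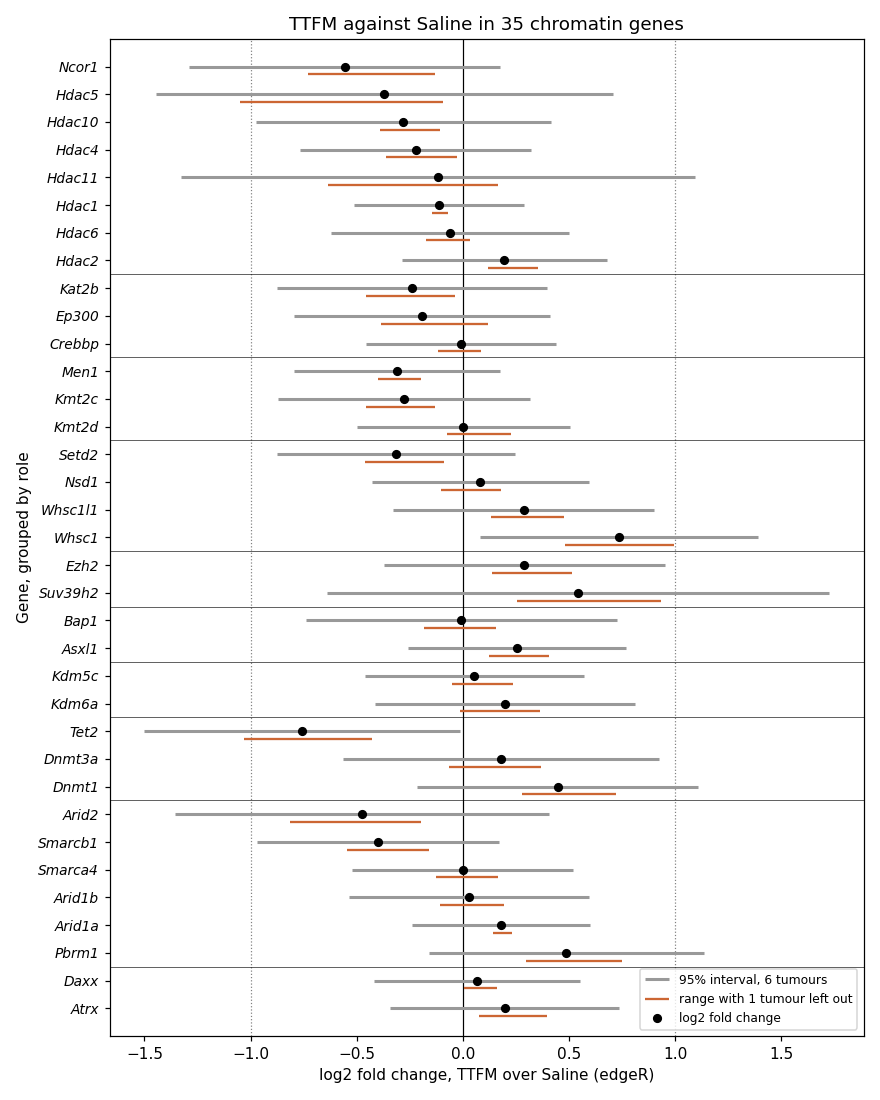
Log2 fold changes of TTFM over Saline for the 35 genes, grouped by role, with points for edgeR's estimate from 6 tumours, grey bars for its 95% interval and orange bars for the range when 1 tumour was left out. Dotted lines mark a 2-fold change. Only the grey bars of Whsc1 and Tet2 clear 0, before any adjustment for the number of genes.

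Histone deacetylases and the corepressor Ncor1 formed the largest role, with 8 genes, of which 7 had negative fold changes and 0 passed the test. Of all 627 genes tested, 314 were negative. In the role 5 were negative without Saline replicate 1 and 5 without Saline replicate 3. The role's median log2 fold change was -0.17, and it ran between -0.36 (TTFM replicate 3 left out) and -0.068 (Saline replicate 3 left out). Ncor1, the scaffold through which nuclear receptors recruit Hdac3, had 713, 686 and 1376 normalized counts in Saline replicates 1 to 3 and 538, 595 and 754 in TTFM replicates 1 to 3. One tumour, Saline replicate 3, stood far above the rest, and the groups overlapped. The log2 fold change was -0.56 (SE 0.31, edgeR adjusted p = 0.909), and -0.13 without Saline replicate 3.

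The class I deacetylases Hdac1 and Hdac2 are the catalytic subunits of the Sin3, NuRD and CoREST complexes. Hdac1 had 798 ± 30.05 normalized counts in the Saline group and 738 ± 30.1 in the TTFM group (SD, n = 3), a log2 fold change of -0.11 with a 95% interval of -0.51 to 0.29. Its highest tumour stood 1.15-fold above its lowest, a spread lower than that of 99.0% of the genes tested. Hdac2 was the role's gene with a positive value, 0.20 (95% interval -0.29 to 0.68). It read 1011 and 1018 in TTFM replicates 1 and 2 and 734 in TTFM replicate 3, below all Saline values (763, 868 and 782).

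The class IIa enzymes Hdac4 and Hdac5, which shuttle between nucleus and cytoplasm and repress MEF2 targets, and Hdac11, the only class IV enzyme, varied within each group. Hdac5 had 609, 334 and 620 normalized counts in the Saline group and 234, 264 and 713 in the TTFM group. Its highest and its lowest tumour were both in the TTFM group, and the log2 fold change of -0.37 (SE 0.46) became -1.05 without TTFM replicate 3. Hdac11 read 115, 36.4 and 110 in the Saline group and 57.9, 53.1 and 131 in the TTFM group, a 3.60-fold range with the lowest value in Saline replicate 2. Its log2 fold change of -0.12 (SE 0.52) turned to 0.17 without Saline replicate 1 and became -0.48 without Saline replicate 2 and -0.63 without TTFM replicate 3. Hdac4 ran from 184 to 284 normalized counts among Saline and from 179 to 233 among TTFM tumours, a log2 fold change of -0.22 (SE 0.23) that became -0.027 without Saline replicate 3 and -0.36 without Saline replicate 2. Hdac10, a polyamine deacetylase, stood at -0.28 (SE 0.30) on 28.5 to 46.4 normalized counts, and Hdac6, the cytoplasmic tubulin deacetylase, at -0.059 (SE 0.24) on 80.7 to 106. Both had overlapping groups, and with 1 tumour left out Hdac10 ran from -0.39 to -0.11 and Hdac6 from -0.17 to 0.033.

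Histone acetyltransferases were represented by 3 genes, all on the negative side without passing. Under DESeq2 size factors or upper quartiles 1 of them was positive, and without Saline replicate 1 there were 2. Kat2b (PCAF) had 739, 407 and 669 normalized counts in the Saline group and 454, 457 and 627 in the TTFM group. The low Saline tumour, replicate 2, lay below every TTFM value, so that the log2 fold change of -0.24 (SE 0.27) became -0.46 without it and -0.036 without Saline replicate 1. Ep300 and Crebbp are paralogous acetyltransferases of enhancer histones. Ep300 read 1183, 627 and 815 in the Saline group and 719, 780 and 796 in the TTFM group, a log2 fold change of -0.19 that turned to 0.12 without Saline replicate 1. Crebbp had 686, 541 and 709 against 633, 605 and 688, a log2 fold change of -0.0076 with a 95% interval of -0.46 to 0.44, and its highest tumour was 1.31-fold above its lowest.

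Among the genes for lysine 4 methylation of histone H3, Men1 was the 1 gene of the list whose groups did not overlap. Men1 encodes menin, the tumour suppressor that tethers MLL complexes to promoters. It had 151.2, 156 and 184 normalized counts in the Saline group and 125, 120.2 and 151.0 in the TTFM group, so that the groups were parted by the narrow gap between Saline replicate 1 and TTFM replicate 3. The log2 fold change was -0.31 (SE 0.21, edgeR adjusted p = 0.938), negative with any tumour left out (-0.40 to -0.20). Under scaling by DESeq2 size factors, totals or upper quartiles its groups overlapped, and those of Whsc1 no longer did. The same held with no filter and with a mean count of at least 50. Kmt2c and Kmt2d, the methyltransferases of enhancers, stood at -0.28 (SE 0.26) and 0.0020 (SE 0.22). Kmt2d had 530, 555 and 787 normalized counts in the Saline group and 594, 612 and 668 in the TTFM group, with the TTFM values inside the Saline range.

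The 4 genes for methylation of lysine 36 of histone H3 were spread widely. Whsc1 (Nsd2), which writes the dimethyl mark and is overactive in a form of human myeloma, had 253, 235 and 216 normalized counts in the Saline group and 517, 406 and 251 in the TTFM group. TTFM replicates 1 and 2 stood well above all Saline tumours, and TTFM replicate 3 lay just within the Saline range. The means were 235 ± 18.4 and 391 ± 134 (SD, n = 3), a 1.67-fold difference with a log2 fold change of 0.74, an SE of 0.28 and an edgeR adjusted p of 0.719. It kept its sign with any tumour left out, between 0.48 (TTFM replicate 1 left out) and 0.99 (TTFM replicate 3 left out).

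The other genes of this role did not share that pattern in full. Whsc1l1 (Nsd3) stood at 0.29 (SE 0.26), with 541, 785 and 908 normalized counts in the Saline group and 954, 1066 and 705 in the TTFM group, again highest in TTFM replicates 1 and 2. Nsd1, mutated in the overgrowth disorder Sotos syndrome, stood at 0.082 (SE 0.22), and its highest value, 265, was in TTFM replicate 3 while the other tumours lay between 181 and 206. Setd2, the enzyme for the trimethyl mark, had 1445, 1208 and 1945 normalized counts in the Saline group and 1132, 1166 and 1396 in the TTFM group. It stood at -0.32 (SE 0.24), and at -0.087 without Saline replicate 3, its highest tumour. The difference between Whsc1 and Setd2 was not tested.

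The 2 histone methyltransferases of silenced chromatin on the list ran in a similar order across tumours. Suv39h2, which methylates lysine 9 of histone H3 in heterochromatin, had 24.1, 50.04 and 27.5 normalized counts in the Saline group and 66.8, 60.1 and 19.98 in the TTFM group. Its TTFM group thus held both its highest values and its lowest, a 3.34-fold range, and the log2 fold change of 0.54 (SE 0.51, edgeR adjusted p = 0.938) became 0.25 without TTFM replicate 1 and 0.93 without TTFM replicate 3. Ezh2, the catalytic subunit of Polycomb repressive complex PRC2, had 187, 306 and 245 in the Saline group and 360.4, 333 and 208 in the TTFM group. In both genes TTFM replicates 1 and 2 came first and Saline replicate 2 came next, while Saline replicate 1 and TTFM replicate 3 were the lowest 2. The same 3 tumours were the highest in 19.5% of all genes tested, so this order was not particular to the role. Ezh2 stood at 0.29 (SE 0.28), and at 0.14 without TTFM replicate 1.

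Windows at annotated starts of these 2 genes and of Dnmt1, the maintenance DNA methyltransferase, are shown. They were the genes with an E2F core match among the 5 highest in TTFM replicates 1 and 2 and Saline replicate 2. The windows of the other genes of that order, Hdac2 and Pbrm1, held 0 matches and are not printed. The windows, from RefSeq on GRCm38.p6, run from 250 bases before to 50 after an annotated start, each on the minus strand: Suv39h2 at chr2:3474937-3475236, Ezh2 at chr6:47594981-47595280 and Dnmt1 at chr9:20952574-20952873. Capitals mark matches, on either strand, to the core site of E2F factors, TTNNCGC with each N a C or a G. The printed Dnmt1 window is at the annotated start furthest downstream and is the only 1 of its 3 with a match. The windows at its 2 starts further upstream held 0 matches.
Suv39h2: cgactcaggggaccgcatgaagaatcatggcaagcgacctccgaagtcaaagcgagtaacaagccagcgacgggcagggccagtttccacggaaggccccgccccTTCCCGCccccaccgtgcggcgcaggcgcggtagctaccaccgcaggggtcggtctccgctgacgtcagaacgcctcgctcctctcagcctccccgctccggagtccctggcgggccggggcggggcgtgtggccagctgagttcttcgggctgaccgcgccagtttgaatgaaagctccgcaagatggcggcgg
Ezh2: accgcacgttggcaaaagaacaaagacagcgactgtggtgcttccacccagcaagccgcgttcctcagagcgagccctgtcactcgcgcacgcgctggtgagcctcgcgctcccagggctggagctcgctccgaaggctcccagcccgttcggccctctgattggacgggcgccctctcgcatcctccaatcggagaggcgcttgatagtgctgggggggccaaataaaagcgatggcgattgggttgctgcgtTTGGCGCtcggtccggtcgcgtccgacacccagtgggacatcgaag
Dnmt1: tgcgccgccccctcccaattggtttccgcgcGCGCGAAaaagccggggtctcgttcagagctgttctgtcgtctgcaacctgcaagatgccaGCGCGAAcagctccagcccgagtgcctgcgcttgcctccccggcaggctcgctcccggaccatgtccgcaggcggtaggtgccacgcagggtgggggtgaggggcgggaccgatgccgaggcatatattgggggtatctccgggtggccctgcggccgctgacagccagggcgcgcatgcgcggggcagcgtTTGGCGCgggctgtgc
The Suv39h2 and Ezh2 windows held 1 match each and the printed Dnmt1 window held 3, with 2 of them on the strand opposite to the gene. Of the 35 genes 29 had a window, and 7 of their 40 windows (17.5%) held a match, against 9.57% of all 32851 windows in the table. The other matches were in windows of Atrx, Arid1a, Asxl1 and Smarcb1. The motif and the printed windows were chosen after the counts were seen, a match is a run of letters and no proof of a site, and windows of a gene can overlap.

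DNA methylation genes included the 1 other member at an unadjusted p under 0.05. Tet2, which oxidizes methylcytosine and restrains inflammatory cytokine genes in myeloid cells, had 338, 189.9 and 455 normalized counts in the Saline group and 169, 201 and 212 in the TTFM group. Saline replicates 1 and 3 stood above every TTFM tumour, and Saline replicate 2 lay among them. The means were 328 ± 133 and 194 ± 22.5 (SD, n = 3), 1.69-fold lower in TTFM, with a log2 fold change of -0.76, an SE of 0.32 and an edgeR adjusted p of 0.777. It stood at -1.03 without Saline replicate 2 and at -0.43 without Saline replicate 3. Of the macrophage markers 2 of 5 were on the panel, with sums of 656 to 1183 normalized counts in the Saline group and 603 to 712 in the TTFM group, and they lay on opposite sides. Cd14, the lipopolysaccharide coreceptor, had 803, 154 and 641 in the Saline group and 157, 145 and 180 in the TTFM group (log2 fold change -1.73), high in the same 2 tumours as Tet2, while Csf1r, the receptor of a macrophage growth factor, stood at 0.41. Of the granulocyte markers 5 of 7 were on the panel, with a median log2 fold change of -1.62. They summed to 3698 to 7014 in the Saline group and 1587 to 6047 in the TTFM group. Mmp9 (0.59) made up most of the sum except in Saline replicates 1 and 3, where Il1b did. Il1b (-1.64), Csf3r (-1.66) and Il1r2 (-1.62) had an unadjusted p under 0.05, and Mpo stood at -0.86. Il1b had 2289, 1257 and 2603 normalized counts in the Saline group and 803, 706 and 460 in the TTFM group, highest in the same 2 tumours as Tet2. Csf3r and Il1r2 were highest in those tumours too, but Il1r2 read 90.5 in Saline replicate 1 and 88.7 in Saline replicate 2. In Mmp9, Mpo and Csf1r the highest Saline tumour was instead replicate 2 (5510, 52.3 and 503). None of these 7 markers was at 0, and the part of such cells in the Tet2 values was not tested.

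Dnmt1, which copies methylation onto new DNA strands, had 159, 179 and 165 normalized counts in the Saline group and 266, 278 and 139.9 in the TTFM group. As in Whsc1, replicates 1 and 2 of TTFM stood above all others. Replicate 3 of TTFM was the lowest tumour in Dnmt1, while in Whsc1 it lay within the Saline range. The log2 fold change was 0.45 (SE 0.28, edgeR adjusted p = 0.916), and 0.72 without TTFM replicate 3. Dnmt3a, a de novo methyltransferase, stood at 0.18 (SE 0.32), and its highest value, 82.1, was in TTFM replicate 3 while its lowest, 44.1, was in TTFM replicate 2.

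SWI/SNF genes numbered 6, with 3 positive and 3 negative values and a median of 0.013. Pbrm1, the polybromo subunit of the PBAF complex, had 277, 305 and 263 normalized counts in the Saline group and 445, 492 and 248 in the TTFM group, once more with replicate 3 of TTFM at the bottom. It stood at 0.49 (SE 0.28, edgeR adjusted p = 0.909), and from 0.30 to 0.75 with 1 tumour left out. Smarcb1, the core subunit lost in rhabdoid tumours, had 508, 314 and 379.5 in the Saline group and 250.4, 338 and 323 in the TTFM group, a log2 fold change of -0.40 (SE 0.25) that became -0.16 without Saline replicate 1. Smarca4, the ATPase BRG1, had 834, 726 and 939 against 878, 969.6 and 648 and stood at -0.0014 with a 95% interval of -0.52 to 0.52, the middle value of the list.

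Of the ARID subunits that define SWI/SNF variants, Arid1a was among the steadiest genes of the list. It had 736, 843 and 789.96 normalized counts in the Saline group and 879.8, 838 and 967 in the TTFM group, a log2 fold change of 0.18 (95% interval -0.24 to 0.60) that ran from 0.14 to 0.23 with 1 tumour left out. Arid1b stood at 0.028 (SE 0.24), and at values of either sign with 1 tumour left out. Arid2, of PBAF, had 18, 15 and 19 counts in the Saline group and 12, 7 and 16 in the TTFM group before scaling. Counting error alone, as exact 95% Poisson intervals, gave 10.7 to 28.4 for the first and 2.81 to 14.4 for the count of 7. The fitted log2 fold change was -0.48 (SE 0.38), and -0.20 without TTFM replicate 2.

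In the remaining roles 0 genes passed the test. Asxl1 and Bap1 are partners in the complex that removes ubiquitin from histone H2A. Asxl1 had 276, 255 and 187 normalized counts in the Saline group and 252, 288 and 316 in the TTFM group, with overlap (0.26, SE 0.22), and Bap1 stood at -0.0065 (SE 0.32) on 12 to 24 counts a tumour. The X-linked demethylases Kdm6a (UTX), which erases the mark of Ezh2, and Kdm5c stood at 0.20 (SE 0.26) and 0.054 (SE 0.22). Kdm6a had 105, 100.1 and 134 normalized counts in the Saline group and 113, 108 and 169 in the TTFM group, and its sign turned without TTFM replicate 3 (-0.014). Atrx and Daxx together deposit histone H3.3 at repeats and telomeres. Atrx had 338, 396 and 414 in the Saline group and 511, 482 and 324 in the TTFM group (0.20, SE 0.23), and Daxx was among the steadiest, with a 1.20-fold range (0.067, SE 0.21).

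**Figure D2:**
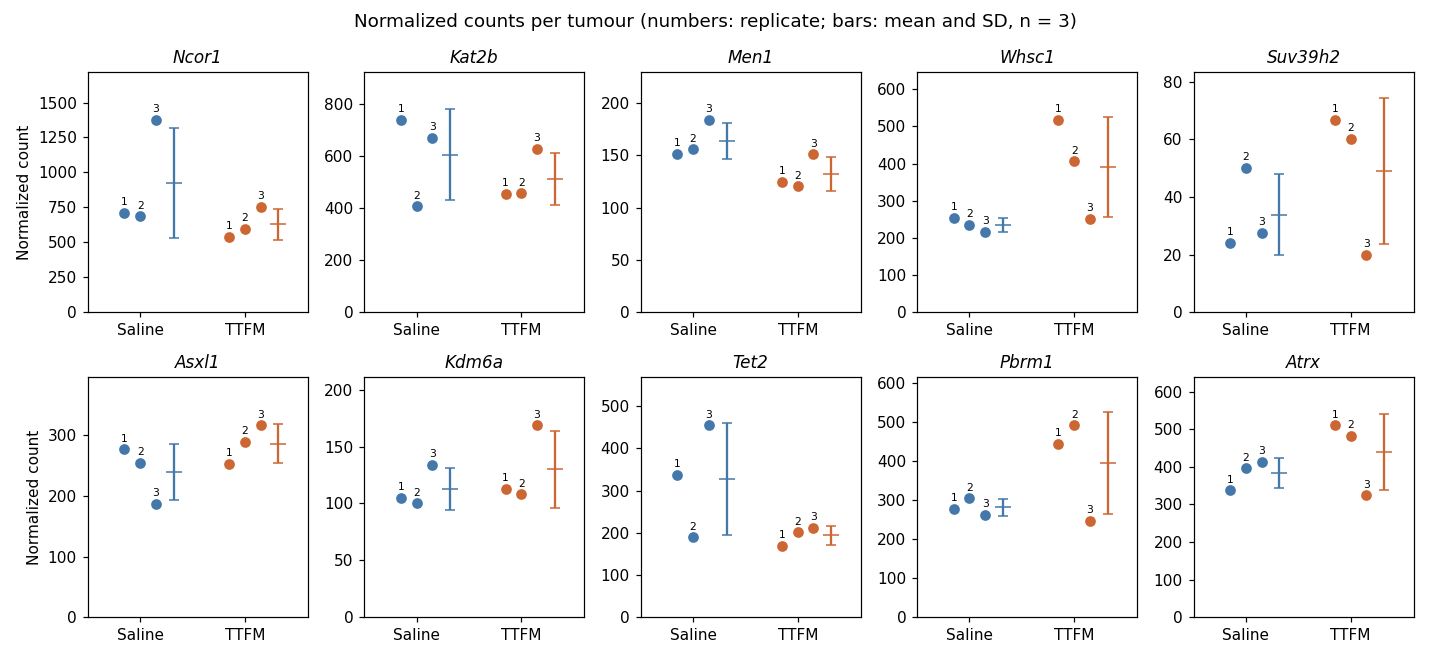
Normalized counts of the gene of smallest p in each role, with 1 point per tumour numbered by replicate and the mean and SD of 3 tumours beside each group. In Whsc1, Suv39h2, Pbrm1 and Atrx the TTFM group splits, with replicates 1 and 2 high and replicate 3 at 251, 19.98, 248 and 324.

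Values also differed between tumours of 1 group. TTFM replicates 1 and 2 held the 2 highest of the 6 values in 8 genes (22.9%, against 14.4% of all genes tested): Whsc1, Whsc1l1, Ezh2, Suv39h2, Dnmt1, Hdac2, Pbrm1 and Atrx. They held the 2 lowest in another 8 (22.9%, against 12.8%): Ncor1, Hdac4, Hdac5, Hdac10, Men1, Setd2, Nsd1 and Arid2. TTFM replicate 3 was the lowest of all tumours in 7 genes (20%, against 15.9% of all genes tested) and the highest in 9 (25.7%, against 19.1%), and Saline replicate 3 was the highest in 11 (31.4%, against 21.2%). Without TTFM replicate 3, the groups did not overlap in 15 of the 35 genes, 8 higher and 7 lower, where 31.7% of all genes did not overlap, and Dnmt1, Hdac5, Pbrm1 and Whsc1 had an unadjusted p under 0.05 (11.2% of all genes did), with 0 passing after adjustment.

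**Figure D3:**
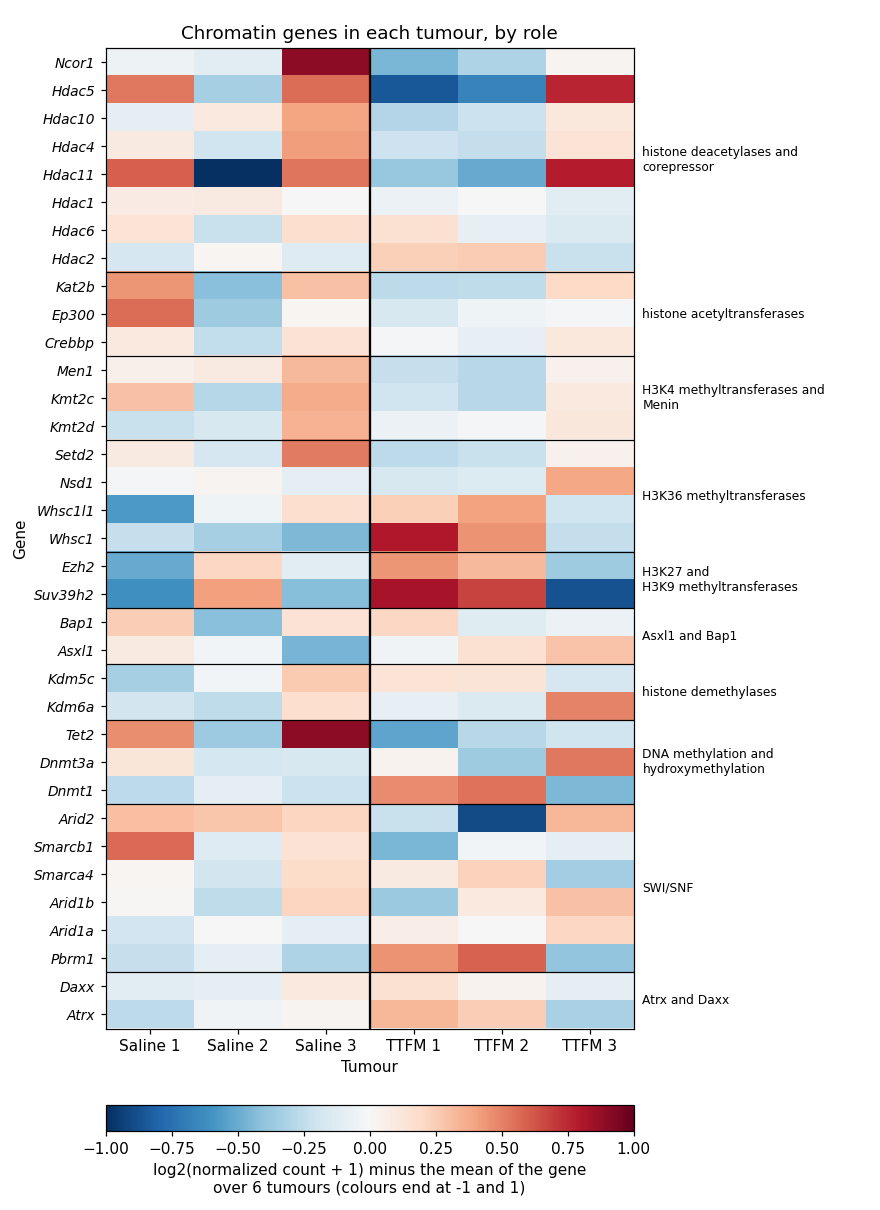
Log2 normalized counts of the 35 genes in the 6 tumours, each gene centred on its own mean, with rows grouped by role. The columns of TTFM 1 and TTFM 2 resemble each other, with Suv39h2, Dnmt1 and Pbrm1 high and Hdac5 low, and TTFM 3 shows the opposite colours in these genes.

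Saline replicate 2 shared part of that pattern. It and TTFM replicates 1 and 2 were the lowest 3 tumours in 10 genes (28.6%, against 20.4% of all genes tested), which included all 3 acetyltransferases, Crebbp, Ep300 and Kat2b, together with Hdac4, Hdac5, Hdac11, Kmt2c, Ncor1, Setd2 and Tet2. They were the highest 3 in 5 genes (14.3%, against 19.5%), Dnmt1, Ezh2, Hdac2, Pbrm1 and Suv39h2. Without Saline replicate 2 the groups did not overlap in 8 genes, against 34.9% of all genes, with Ep300, Kat2b, Kmt2c, Men1, Setd2, Smarcb1 and Tet2 lower and Arid1a higher in TTFM. Ncor1 and Tet2 then had an unadjusted p under 0.05 (18.8% of all genes did), and 0 of the 35 passed after adjustment, while 14 of all genes did.

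The sum of the proliferation markers was highest in TTFM replicates 1 and 2 and Saline replicate 2. The same tumours were highest in Dnmt1, Ezh2, Hdac2, Pbrm1 and Suv39h2. In Whsc1, Whsc1l1 and Atrx, TTFM replicates 1 and 2 were followed by Saline replicate 1 or 3 instead. The 11 of 13 listed markers on the panel, among them Top2a, Pcna and Mcm2, summed to 3465, 5658 and 2586 normalized counts in the Saline group and 6686, 6687 and 3262 in the TTFM group, none at 0. The order of tumours in the sum was close to that of Suv39h2 and Ezh2, with TTFM replicates 1 and 2 highest and Saline replicate 2 next. Of the markers 9 had positive and 2 negative fold changes, with a median log2 fold change of 0.37 that ran from 0.14 to 0.69 with 1 tumour left out. The 2 negative ones, Ccnb1 (-0.20) and Cdc6 (-0.26), did not share the order of the sum, on 8.88 to 18.3 normalized counts. Mcm7, with a positive value, read 450, 457 and 460 in the Saline group, without a high replicate 2. In Dnmt1 and Pbrm1, Saline replicate 2 read 179 and 305, near the other Saline tumours. Fibroblast and matrix markers, 8 of 9 on the panel and none at 0, summed to 36590.2, 60716 and 32124 in the Saline group and 36296, 51272 and 47324 in the TTFM group. The markers did not share an order. In Col1a1, Col3a1 and Col5a2, Saline replicate 2 and TTFM replicates 1 and 2 were the highest tumours, as in the proliferation sum. TTFM replicate 3 had the lowest TTFM value in these genes (6644, 2449 and 584). In Col1a2, Col5a1 and Pdgfrb it stood above TTFM replicate 1. It was the highest of all tumours in Fn1 (30348) and Pdgfra (488). The part of either cell group in the chromatin values was not tested.

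**Figure D4:**
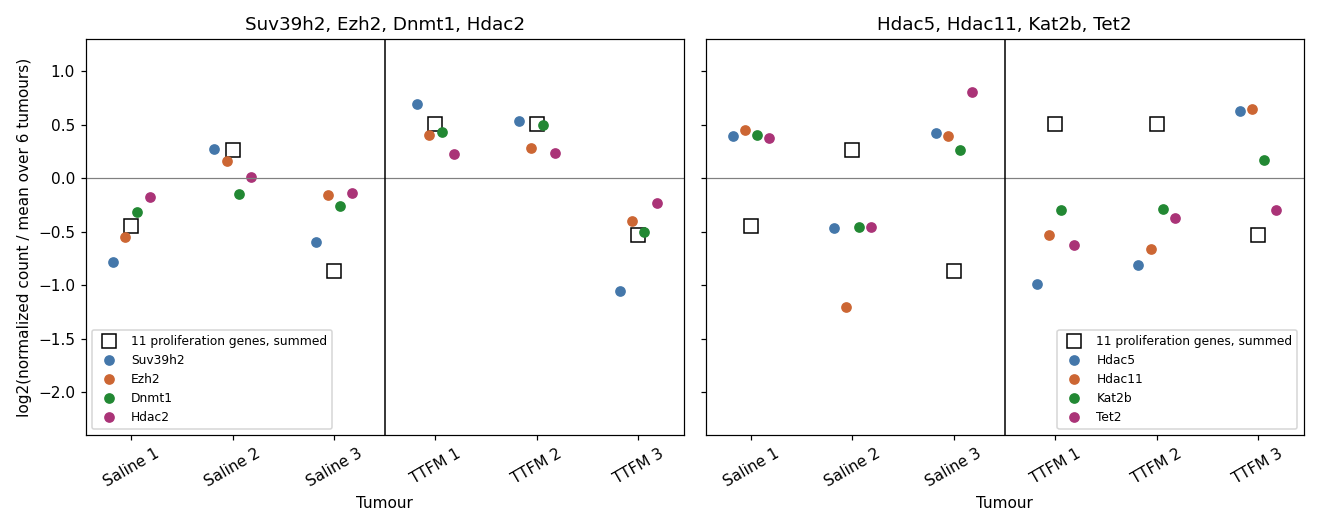
Log2 ratio of each tumour's normalized count to the mean of 6 tumours, for 8 chromatin genes (coloured points) and the sum of 11 proliferation genes (open squares). Suv39h2, Ezh2, Dnmt1 and Hdac2 on the left lie above 0 with the squares in TTFM 1 and TTFM 2 and below 0 in TTFM 3. In Saline 2 the squares lie above 0, but Dnmt1 lies below 0 and Hdac2 close to it. Hdac5, Hdac11 and Kat2b on the right lie on the other side of 0 from the squares in all 6 tumours. Tet2 lies on the same side as the squares in TTFM 3. The 8 genes were chosen after their values were seen. Saline 2, TTFM 1 and TTFM 2 were the lowest 3 tumours in 20.4% of all genes tested and the highest 3 in 19.5%.

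Chromatin-linked genes outside the naming rule, from a list of 45 of which 20 were on the panel, leaned to the higher side. Of 18 tested, 15 had positive log2 fold changes, where 49.9% of all genes tested were positive. The median was 0.28, against -0.0014 over all genes, and 0 passed the test. The median ran between 0.17 (Saline replicate 3 left out) and 0.49 (TTFM replicate 3 left out). The groups did not overlap in 1 of the 18, on the higher side, where 3.99% of all genes lay without overlap. It was Sin3a, the scaffold of a complex that holds Hdac1 and Hdac2. It had 343, 339 and 302 normalized counts in the Saline group and 406, 383 and 366 in the TTFM group, a log2 fold change of 0.23 (SE 0.18, edgeR adjusted p = 0.938).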

How the data were processed

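The authors deposited 1 table of whole-number values for 750 genes in 6 tumours, taken here as counts per gene because of the values themselves. No label or header gives the platform, the counting or any scaling before deposit, and control probes were not used here. The 627 genes averaging 10 counts or more were tested with edgeR 4.0.16 (TMM scaling, glmQLFit, glmQLFTest) in R 4.3.3 for TTFM against Saline, with Benjamini-Hochberg adjustment at 0.05. Normalized counts are counts over the effective library size (total times TMM factor), put on the scale of the mean effective size. An SE is the absolute log2 fold change over root F, and 95% intervals use the t quantile of the fit. On simulated counts for these 627 genes the fit recovered 27% of 2-fold and 95% of 4-fold changes. The simulation changed 200 genes and gave every gene the same coefficient of variation beyond counting error, 33.4%. The real tumours had 0 genes past the threshold and a spread that differed by gene, so these rates may not hold for this list. Alternatives were other scalings, filters, a floor of 20, DESeq2 1.42.0, limma 3.58.1, a replicate block and each tumour left out. No 2 samples were alike enough to be 1 library. The lowest chi-square per degree of freedom was 9.13, between TTFM replicates 1 and 2, and the next was 23.8, between Saline replicate 2 and TTFM replicate 2. These values cannot tell 2 pieces of 1 tumour from 2 tumours.

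Values in every tumour are given for genes at an unadjusted p under 0.05, for genes whose groups did not overlap and for the gene of smallest p in each role. Those of other genes were chosen after their values were seen. The genes and lists were chosen with earlier results of these data known. Levels of different genes are not compared, since no transcript or probe lengths were used.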

Additional observations from a re-analysis of the deposited data

How the results depend on the processing

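No gene of the list passed under any of the 15 alternatives. Genes past the threshold over the whole table numbered 0, but 1 with the DESeq2 test and 0 to 14 with 1 tumour left out (14 without Saline replicate 2). Chromatin genes at an unadjusted p under 0.05 numbered 2. They numbered 1 with total-count scaling, with no filter, with a mean count of at least 50 and with limma, in each case Whsc1 alone, and 0 to 4 with 1 tumour left out. Genes whose groups did not overlap numbered 1, but 2 with a mean count of at least 50, 2 with values under 20 raised to 20, and 2 to 15 with 1 tumour left out (15 without TTFM replicate 3). The median log2 fold change of the list ran from -0.060 to 0.066 under scalings, filters, tests and the block, and from -0.091 to 0.11 with 1 tumour left out. The sign turned in 12 of the 35 genes with 1 tumour left out. Of the 10 genes named for their role it turned in Kdm6a, which ran from -0.014 to 0.36.

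The groups share replicate numbers, and with the replicate block edgeR gave 0 genes past the threshold and 1 chromatin gene, Whsc1, at an unadjusted p under 0.05. The labels do not say whether the numbers pair the tumours. Deviations from the group means correlated at -0.23, 0.44 and 0.26 in the pairs numbered 1, 2 and 3. In pairs of unlike number they ran from -0.42 to 0.39. With 3 deviations a group that sum to 0, these values cannot decide whether the tumours were paired. With 3 tumours a group, changes near 2-fold were often missed in simulated counts, and low-count genes such as Arid2 and Bap1 are limited by counting error.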
